A study of Mus musculus with 6 samples.

Results

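The genes described here are 7 transcription factors that set or keep the identity of hair cells: Atoh1, Pou4f3, Gfi1, Barhl1, Lhx3, Eya1 and Rfx3. They were chosen by name from what is known of these factors, with earlier results of these data known, and all 7 were present among the 25823 genes of the expression table. Of these genes 19649 had a mean level of at least 0.1 FPKM and were tested, among them 6 of the 7 factors. FPKM counts fragments scaled to transcript length and to the number of sequenced fragments, so that genes and libraries can be set side by side, and the level of a gene is the sum over its listed transcripts.

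Cochleas of young (1-month) and old (12-month) C57BL/6 mice were collected to examine age-related hearing loss (AHL), for which this inbred strain is a common early-onset model. The labels give no treatment and no genetic change for either group, which had 3 samples each, and tissue of 3 mice was mixed in each sample. RNA came from dissected basilar membranes, the strip of tissue that carries the organ of Corti with its hair cells, supporting cells and nerve endings. The spread between samples is therefore a spread between pools, and age cannot be told apart from anything else that differed between the groups of mice. Because low FPKM values are whole multiples of what 1 fragment is worth, the depth could be read from them, at about 12560000 to 15690000 fragments a library. Of 29 genes for hair cell structure and function, 28 passed the filter, with summed levels of 304.8 to 410.0 FPKM in young samples and 236.6 to 260.0 FPKM in old samples, so that hair cell RNA was measured in every library. Young replicate 1 stood apart by the highest levels of neutrophil genes and of some hindbrain genes, and values without it are given where the factors are compared.

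Hair cells turn sound into nerve signals and are not replaced in the adult mammalian cochlea. During development the EYA1 protein helps to prepare the sensory epithelium, and ATOH1 then commits cells to the hair cell fate. POU4F3, a target of ATOH1, is needed for hair cells to mature and survive, and it keeps up the expression of Gfi1 and Lhx3. Barhl1 is another gene that hair cells need for long-term survival, and RFX factors switch on genes for cilia and are needed for hair cells to survive.

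Among the 6 factors tested, Gfi1 was lower in old mice, and no other factor passed the threshold (adjusted p under 0.05, limma over all tested genes). Across all tested genes, 3.68% were lower, 5.41% were higher and 9.09% differed in either direction by the same rule. Pou4f3, Gfi1 and Rfx3 had every old sample below every young sample, that is 3 of the 6, while 16% of all tested genes did so. No factor had every old sample above every young sample, against 17.5% of all tested genes, and 33.5% of these were without overlap in either direction. The median log2 change, old against young, was -0.63 over the 6 factors and 0.0087 over all tested genes. Without young replicate 1 the log2 changes were -2.02 for Gfi1 (adjusted p = 0.0409), -1.39 for Pou4f3 (0.111), -0.77 for Barhl1 (0.535), -0.47 for Rfx3 (0.201), 0.05 for Eya1 (0.792) and 0.43 for Lhx3 (0.694, all limma), so that 1 factor passed as with all samples. In a bulk sample fewer cells of a type and less RNA per cell cannot be told apart. Actb and Gapdh, genes used widely as references, differed by 0.12 and -0.14 on the log2 scale, with adjusted p of 0.423 and 0.309 (limma).

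**Figure D1:**
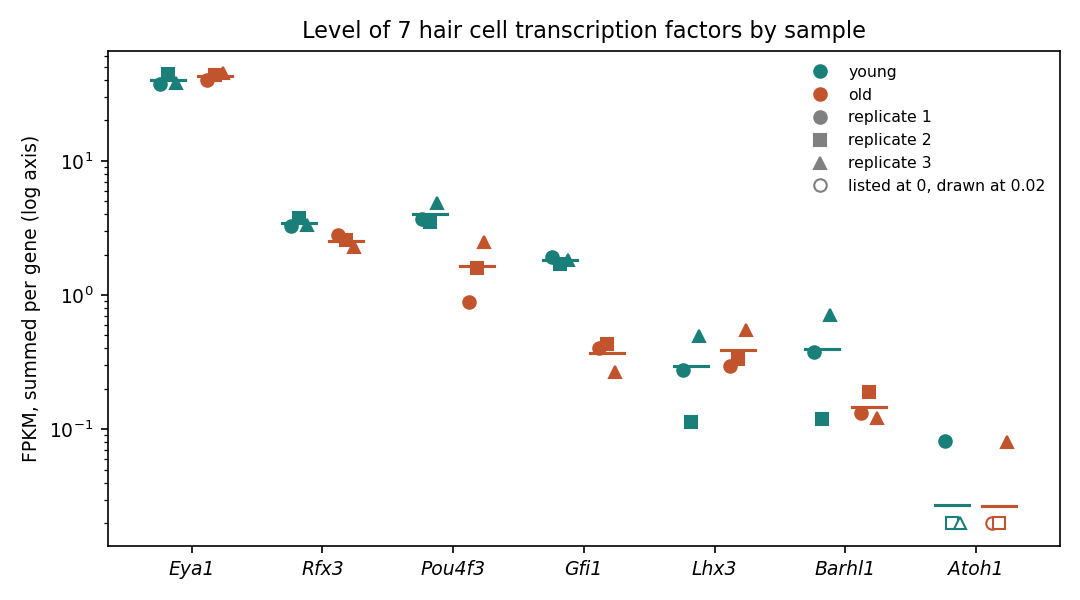
Level of each factor in FPKM (log axis) in the 3 young and 3 old samples, with a bar at the group mean; values listed at 0 are drawn as open symbols at 0.02. Gfi1 is separated most clearly, between 1.71 and 1.92 FPKM in young and between 0.267 and 0.432 FPKM in old samples, while Eya1 stays between 37.5 and 44.9 FPKM in all 6 samples.

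The levels of the factors spanned a wide range. In young mice the order was Eya1, Pou4f3, Rfx3, Gfi1, Barhl1, Lhx3 and Atoh1, and the values of Pou4f3 and Rfx3, and those of Barhl1 and Lhx3, overlapped. In old mice the order was Eya1, Rfx3, Pou4f3, Lhx3, Gfi1, Barhl1 and Atoh1, with overlap between Rfx3 and Pou4f3 and between Lhx3 and Gfi1. Gfi1 thus stood well above Lhx3 in the young samples, whose values did not overlap, and overlapped with it in the old samples.

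Atoh1 (chromosome 6, 64729125 to 64731245, plus strand, GRCm38) encodes the basic helix-loop-helix protein that starts the hair cell fate, and it is switched off in maturing hair cells. It was listed at 0.0821 FPKM in young replicate 1, at 0.0808 FPKM in old replicate 3 and at 0 in the other 4 samples. The non-zero values correspond to about 2 fragments each. A value of 0 allows a level of up to 0.104 to 0.131 FPKM depending on the library, which is what 3 fragments would give and covers counting error only. At this depth no difference of Atoh1 between ages was detectable, and the gene did not pass the filter for the test.

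Genes around ATOH1 were better covered. The E proteins that pair with it and the inhibitors of the ID, HES and HEY families form a list of 13 genes, all tested, of which none passed the threshold in either direction, with a median log2 change of 0.03. Smallest in p was Hey2, a repressor that acts below Notch, at 9.15 ± 1.38 FPKM in young and 5.89 ± 1.42 FPKM in old mice (SD, n = 3), with a log2 change of -0.64 and an adjusted p of 0.0812 (limma). Id2 was at 56.4 ± 2.39 and 49.3 ± 2.04 FPKM (SD, n = 3), and its adjusted p was 0.117 (limma). Id1 was at 84.6 ± 23.7 and 115.7 ± 7.88 FPKM (SD, n = 3), with an adjusted p of 0.127 (limma).

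Pou4f3, on chromosome 18, encodes the POU homeodomain protein that hair cells need to survive. The levels were 3.70, 3.52 and 4.87 FPKM in young replicates 1 to 3 and 0.883, 1.59 and 2.47 FPKM in old replicates 1 to 3. All old samples lay below all young samples, and the old samples differed among themselves more than the young ones in proportion to their level. These values rest on about 102, 101 and 126 fragments in the young and 23, 52 and 69 fragments in the old libraries. The mean was 4.03 ± 0.734 FPKM in young and 1.65 ± 0.793 FPKM in old mice (SD, n = 3). The log2 change was -1.33 with an SE of 0.35 and a 95% confidence interval from -2.15 to -0.52. Its unadjusted p was 0.00595 and its adjusted p 0.0567 (limma), so that the difference did not pass the threshold, and the exact permutation test gave p = 0.1, the smallest it can give for 3 against 3. The adjusted p lay under the threshold with a minimum mean level of 1 FPKM (0.0462), with sample weights (0.0434) and with protein coding transcripts only (0.0369). It ranged from 0.0369 to 0.144 over the settings run (all limma). Pou4f3 has 1 listed transcript, which is protein coding. The minimum level and the coding transcripts setting therefore left its values and log2 change as they were and altered only the other genes in the fit.

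The relatives of Pou4f3 in the same POU class were also measured. Pou4f1, known from sensory neurons including those of the spiral ganglion, was at 1.10, 1.80 and 1.37 FPKM in young and at 0.363, 0.520 and 0.392 FPKM in old samples. Every old value was below every young value, and Pou4f1 fell by 1.52 on the log2 scale (SE 0.31, adjusted p = 0.0297, limma). Pou4f2 was at 1.58 ± 0.660 FPKM in young and 0.679 ± 0.118 FPKM in old mice (SD, n = 3), a log2 change of -1.05 with an adjusted p of 0.096 (limma).

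Gfi1 (chromosome 5, 107716657 to 107726036, minus strand, GRCm38) encodes a zinc finger repressor that silences neuronal genes in hair cells and without which hair cells degenerate. Its level was 1.92, 1.71 and 1.83 FPKM in young replicates 1 to 3 and 0.406, 0.432 and 0.267 FPKM in old replicates 1 to 3. The young samples lay close together, and the highest old sample was far below the lowest young sample. About 60, 48 and 45 fragments stood behind the young values and 12, 16 and 9 behind the old values. The mean was 1.82 ± 0.107 FPKM in young and 0.368 ± 0.0887 FPKM in old mice (SD, n = 3). Gfi1 fell by 2.05 on the log2(FPKM + 0.1) scale, or 4.15-fold on this scale, with an SE of 0.28 and a 95% confidence interval of the change from -2.71 to -1.40. The adjusted p was 0.0136 (limma) and the exact permutation p was 0.1. By its p Gfi1 stood at rank 171 of the tested genes. Without old replicate 2 the log2 change was -2.15 with an adjusted p of 0.0561 (limma), no longer past the threshold, in a fit that called 44 higher and 15 lower genes over the whole table. Over all settings its adjusted p ranged from 0.00599 to 0.241 (limma). The size of the change depended on the pseudocount, with log2 changes of -2.30 at 0.01 and -1.04 at 1.

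Gfi1 is also known from blood-forming cells, in particular from precursors of neutrophils. The 12 neutrophil genes were all tested and none passed the threshold, with summed levels of 14.5 to 457.4 FPKM in young and 20.96 to 88.4 FPKM in old samples. None of the 12 was at 0 in all samples. Young replicate 1 had the highest sum. In young replicate 2, whose sum was the lowest, 4 of the 12 genes (Mpo, Elane, Prtn3 and Ly6g, named after their values were seen) were listed at 0 and the other 8 lay between 0.133 and 7.71 FPKM. The part of neutrophil RNA in the difference of Gfi1 was not tested. The antisense gene A430072P03Rik overlaps Gfi1 and was not a row of the table. The libraries were directional, and whether counting used the strand is not given in the sources used here. Genes on the opposite strand also overlap Lhx3 (Gm27196), Rfx3 (Gm8412 and Gm20407) and Eya1, and without strand their reads could not be told apart.

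The sum of Gfi1 hid a varying split between its 4 listed transcripts. The transcript ENSMUST00000065478, with a coding sequence of 1467 nt, took 98.9, 18.1 and 57.0% of the sum in young replicates 1 to 3 and 93.8, 95.5 and 1.17% in old replicates 1 to 3. The transcript ENSMUST00000031205, which starts further downstream and has a coding sequence of 1269 nt, was listed at 0.982 and 0.362 FPKM in young replicates 2 and 3, at 0.263 FPKM in old replicate 3 and near 0 in the others. The share of ENSMUST00000065478 thus differed more within an age than between ages, with means of 58.0 and 63.5% (exact permutation p = 1). Taken alone, ENSMUST00000065478 was at 1.084 ± 0.795 FPKM in young and 0.266 ± 0.228 FPKM in old mice (SD, n = 3), the groups overlapped, and its log2 change of -1.73 had an adjusted p of 0.241 when each gene was represented by its most abundant transcript (limma). The lower level of Gfi1 in old mice was therefore seen in the sum over transcripts and was not assigned to a single transcript.

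The stretch before the downstream start is shown because the transcript from this start was listed clearly above 0 in only some libraries of either age. With about 9 to 60 fragments of Gfi1 a library, the assignment between transcripts rests on few fragments. It covers 250 bases at chr5:107724344-107724593 on the minus strand (RefSeq start, GRCm38.p6), written towards the start of ENSMUST00000031205 and free of annotated exons.
Gfi1 upstream of the downstream start: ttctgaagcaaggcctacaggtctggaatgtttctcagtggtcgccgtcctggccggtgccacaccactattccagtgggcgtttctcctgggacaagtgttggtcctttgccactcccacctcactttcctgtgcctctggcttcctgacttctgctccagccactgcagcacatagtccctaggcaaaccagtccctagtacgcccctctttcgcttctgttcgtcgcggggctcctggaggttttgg
None of the motifs searched before the factors was found in it.

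GFI1 represses its targets together with corepressors. Of 5 corepressor genes, all tested, 1 passed the threshold as lower in old mice and none as higher, and the median log2 change was 0.01. Hdac2, a histone deacetylase, was at 44.1, 49.8 and 42.8 FPKM in young and at 31.7, 33.4 and 32.5 FPKM in old samples. These groups did not overlap, and Hdac2 fell by 0.48 on the log2 scale (SE 0.08, adjusted p = 0.0207, limma). Rcor1, which bridges GFI1 to the histone demethylase LSD1, was at 9.90 ± 1.25 and 7.53 ± 0.438 FPKM (SD, n = 3), with an adjusted p of 0.0998 (limma). Kdm1a, the gene of LSD1, was at 24.9 ± 1.74 and 26.2 ± 0.353 FPKM (SD, n = 3), with an adjusted p of 0.567 (limma).

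**Figure D2:**
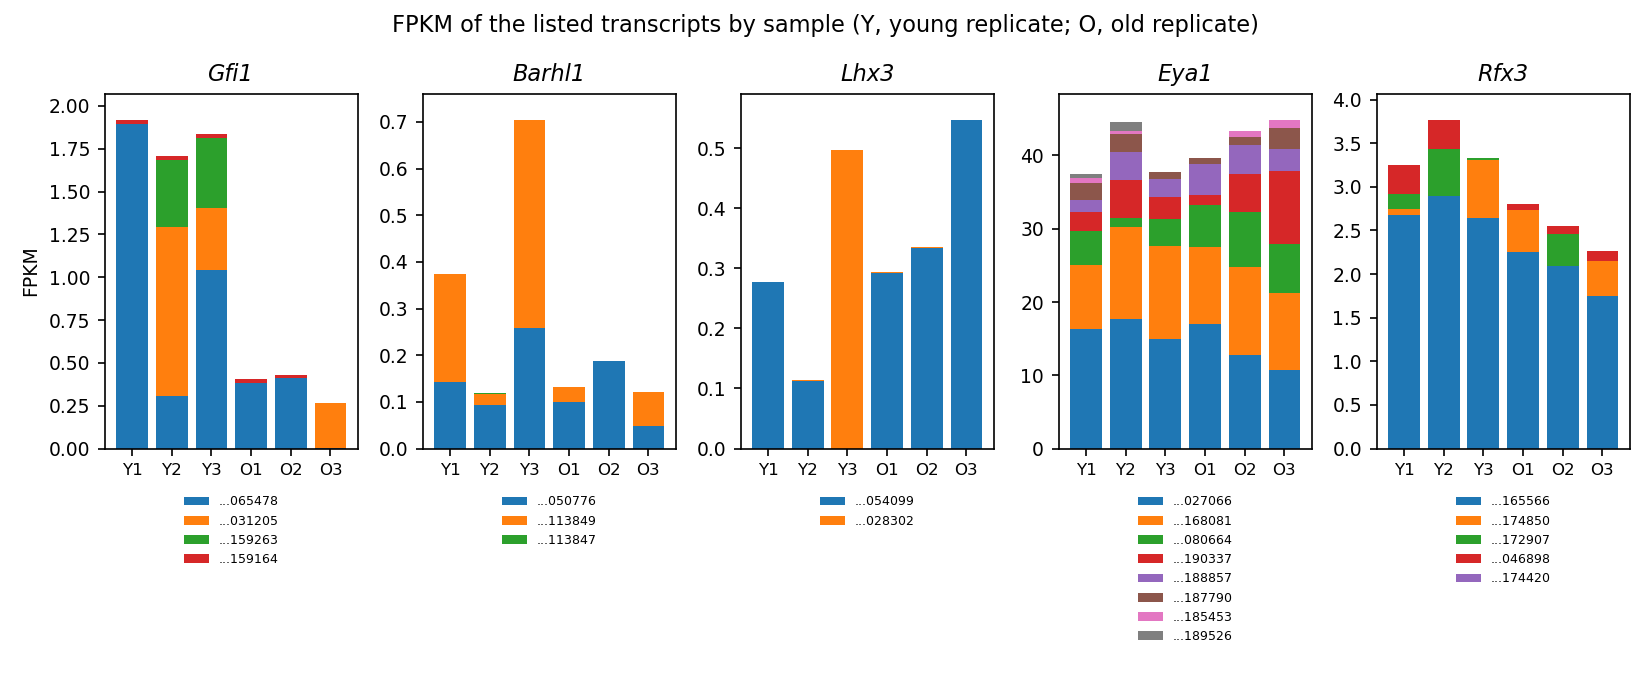
FPKM of each listed transcript, stacked to the gene sum, in young (Y) and old (O) samples for the 5 factors with several transcripts; colours are transcripts, given by the last digits of their identifiers. The split of Gfi1 varied between 1.17 and 98.9% for the transcript at the bottom of the stack, and the young replicate 3 bar of Lhx3 is the only Lhx3 bar made of the other transcript.

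Barhl1 (chromosome 2, 28907679 to 28916668, minus strand, GRCm38) encodes a homeodomain protein without which hair cells are lost over time. The levels were 0.374, 0.118 and 0.705 FPKM in young and 0.133, 0.188 and 0.121 FPKM in old samples. Young replicate 2 lay below all 3 old samples, so that the groups overlapped, and the young samples were widely spread. The values rest on about 12, 5 and 21 fragments in the young and 5, 10 and 4 in the old libraries. The mean was 0.399 ± 0.294 FPKM in young and 0.147 ± 0.0357 FPKM in old mice (SD, n = 3), a log2 change of -0.83 with a 95% confidence interval from -2.18 to 0.52 and an adjusted p of 0.399 (limma). The interval holds both no change and a change as large as that of Gfi1. The 3 listed transcripts of Barhl1 share a coding sequence of 981 nt, and the share of ENSMUST00000050776 was 51.2% in young and 71.8% in old mice on average (exact permutation p = 0.4).

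The E-box, the motif read by basic helix-loop-helix proteins such as ATOH1, was present before a start of Barhl1. The stretch is shown because Barhl1 was the only factor with a window that held this motif in the exon-free part. It covers 250 bases at chr2:28916669-28916918 on the minus strand (RefSeq start, GRCm38.p6), and the capitals mark the E-box, 99 bases before the start.
Barhl1 upstream of the 28916668 start: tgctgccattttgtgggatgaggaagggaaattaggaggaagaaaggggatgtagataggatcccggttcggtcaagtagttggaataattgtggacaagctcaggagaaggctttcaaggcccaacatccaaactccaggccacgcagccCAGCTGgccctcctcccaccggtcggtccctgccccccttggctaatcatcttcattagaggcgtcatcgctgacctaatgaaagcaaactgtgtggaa
The transcript that begins there, ENSMUST00000113847, was at 0.0004 FPKM or less in all samples, and the transcripts with higher levels start downstream of it.

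Lhx3 (chromosome 2, 26200212 to 26208289, minus strand, GRCm38) encodes a LIM homeodomain protein of hair cells that is otherwise known from the pituitary gland and motor neurons. It was at 0.278, 0.114 and 0.497 FPKM in young and at 0.294, 0.335 and 0.547 FPKM in old samples, on about 3 to 14 fragments a library. The groups overlapped, with means of 0.296 ± 0.192 and 0.392 ± 0.136 FPKM (SD, n = 3). The log2 change was 0.40 with a 95% confidence interval from -0.78 to 1.58 and an adjusted p of 0.648 (limma). The interval holds changes in both directions.

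The transcripts of Lhx3 differed in 1 library, a pattern singled out after the values were seen. ENSMUST00000054099 took 99.2 to 99.8% of the sum in 5 samples and 0.0182% in young replicate 3. There ENSMUST00000028302 was listed at 0.497 FPKM, while it was near 0 in the other samples. The mean share of ENSMUST00000054099 was 66.3% in young and 99.8% in old mice (exact permutation p = 0.2). Its own level was above the young samples in all old samples, as for 12.6% of all tested transcripts, with 24.6% without overlap in either direction. The log2 change was 1.26 with an adjusted p of 0.409 (limma). This separation depends on the assignment in young replicate 3, where ENSMUST00000054099 was listed at 9.06e-05 FPKM. The sum over both transcripts overlapped between the ages. With about 12 fragments for Lhx3 in young replicate 3, the assignment between transcripts rests on few fragments.

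These transcripts differ in their first coding bases, which are shown because the assignment between them depends on this part. The coding sequences are 1200 and 1206 nt long and share their last 1114 nt (GENCODE M21). Capitals mark the 86 and 92 nt that belong to only 1 of the transcripts, followed by 15 shared nt in lower case.
Lhx3 ENSMUST00000054099: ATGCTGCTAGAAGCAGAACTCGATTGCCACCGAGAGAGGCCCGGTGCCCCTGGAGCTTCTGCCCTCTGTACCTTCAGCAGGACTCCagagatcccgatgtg
Lhx3 ENSMUST00000028302: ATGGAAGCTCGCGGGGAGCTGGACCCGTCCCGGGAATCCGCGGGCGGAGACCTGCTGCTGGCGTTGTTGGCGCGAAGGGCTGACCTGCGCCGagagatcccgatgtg
The 126 exon-free bases before the start of ENSMUST00000028302, at chr2:26206576-26206701 on the minus strand (RefSeq start, GRCm38.p6), are shown as the sequence just ahead of it.
Lhx3 upstream of the 26206575 start: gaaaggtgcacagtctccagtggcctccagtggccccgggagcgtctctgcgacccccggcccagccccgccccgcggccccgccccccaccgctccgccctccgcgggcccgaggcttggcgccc
None of the motifs searched lay in this stretch.

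LHX3 works with LIM cofactors, and 2 of the 11 genes in this list, all tested, passed the threshold as lower in old mice and none as higher, and the median log2 change was -0.09. Isl1, a LIM homeodomain gene of sensory progenitors and spiral ganglion neurons, was at 28.2, 35.6 and 24.1 FPKM in young and 12.8, 15.4 and 17.5 FPKM in old samples. The groups did not overlap, and Isl1 fell by 0.93 on the log2 scale (SE 0.17, adjusted p = 0.0244, limma). Lmo1, a gene for a LIM-only protein, was at 7.82 ± 0.648 FPKM in young and 4.53 ± 0.737 FPKM in old mice (SD, n = 3) and fell by 0.78 on the log2 scale (adjusted p = 0.0284, limma). Ssbp4, a partner of the LIM-binding proteins, was at 27.1 ± 3.32 and 33.4 ± 3.23 FPKM (SD, n = 3), with an adjusted p of 0.135 (limma).

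Eya1 (chromosome 1, 14168954 to 14310235, minus strand, GRCm38) encodes a phosphatase and transcriptional coactivator that is needed for the ear to form. It was the most abundant of the 7 factors at both ages, at 37.5, 44.6 and 37.8 FPKM in young and 39.7, 43.4 and 44.9 FPKM in old samples. The groups overlapped, with means of 40.0 ± 4.03 and 42.6 ± 2.67 FPKM (SD, n = 3). The log2 change was 0.10 with a 95% confidence interval from -0.12 to 0.31 and an adjusted p of 0.541 (limma), the narrowest interval of the 6 factors tested. Every library held about 1643 to 2152 fragments of Eya1.

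Beneath this level sum, single transcripts of Eya1 had different values at the 2 ages without passing the threshold. ENSMUST00000080664 was at 4.68, 1.13 and 3.66 FPKM in young and at 5.74, 7.42 and 6.64 FPKM in old samples. All old samples were above all young samples, as for 12.6% of all tested transcripts, with 12% below and 24.6% without overlap in either direction. The log2 change was 1.25 (SE 0.49), and the adjusted p over 38764 transcripts was 0.268 (limma). The most abundant transcript, ENSMUST00000027066, was at 16.3 ± 1.36 FPKM in young and 13.5 ± 3.15 FPKM in old mice (SD, n = 3), and its share of the sum went from 41.0 to 32.1% on average (exact permutation p = 0.3). Taken over all transcripts of the 7 factors, none passed the threshold, where 0.748% of all tested transcripts did (0.549% higher and 0.199% lower in old mice).

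Rfx3 (chromosome 19, 27761721 to 28011166, minus strand, GRCm38) encodes a winged helix factor that switches on ciliary genes and is needed for hair cells to survive. The levels were 3.25, 3.77 and 3.33 FPKM in young and 2.80, 2.55 and 2.27 FPKM in old samples. All old samples lay below all young samples, by a smaller distance than for Pou4f3 or Gfi1. The mean was 3.45 ± 0.279 FPKM in young and 2.54 ± 0.269 FPKM in old mice (SD, n = 3), on about 237 to 412 fragments a library. The log2 change was -0.43 (SE 0.16) with a 95% confidence interval from -0.81 to -0.05. Its unadjusted p was 0.0327, its adjusted p 0.143 (limma) and its exact permutation p 0.1, and 27.5% of all tested genes had an unadjusted p under 0.05. The long transcript ENSMUST00000165566 carried 79.6 and 79.8% of the sum at the 2 ages (exact permutation p = 0.9) and was lower in all old samples, at 2.74 ± 0.138 and 2.03 ± 0.257 FPKM (SD, n = 3). Of all tested transcripts 12% were lower in this way.

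Among the relatives of Rfx3, Rfx5, known for switching on antigen presentation genes, was at 3.08, 4.64 and 4.24 FPKM in young and 6.13, 9.16 and 6.22 FPKM in old samples. The old samples were all above the young ones, with a log2 change of 0.83 and an adjusted p of 0.0582 (limma). The list of relatives of the 7 factors held 17 genes, of which 11 were tested, 1 (Pou4f1) was lower and none was higher by the threshold, with a median log2 change of -0.08. Atoh7, Gfi1b, Barhl2, Lhx4, Rfx4 and Rfx6 were at or under 0.381 FPKM in every sample and were not tested.

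Ciliary genes are a group that RFX factors are known to switch on. Of 14 such genes 13 were tested, 1 was lower and none was higher, with a median log2 change of 0.10. Foxj1, the master factor of motile cilia, was at 1.77, 1.98 and 1.51 FPKM in young and 0.647, 0.762 and 0.824 FPKM in old samples. The groups did not overlap, and Foxj1 fell by 1.13 on the log2 scale (SE 0.24, adjusted p = 0.0344, limma). Dync2li1, a gene of retrograde ciliary transport, was at 9.15 and 12.0 FPKM on average with an adjusted p of 0.0798 (limma), and Rsph9, a radial spoke gene, at 26.2 and 34.1 FPKM with an adjusted p of 0.124 (limma).

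Other regulators of hair cell fate and differentiation formed a list of 14 genes, of which 12 were tested, 1 was lower and none was higher, with a median log2 change of -0.21. Rbm24, an RNA-binding protein of hair cells, was at 2.16, 2.34 and 3.50 FPKM in young and at 1.03, 1.32 and 1.39 FPKM in old samples. The groups did not overlap, and Rbm24 fell by 1.02 on the log2 scale (SE 0.25, adjusted p = 0.0496, limma). Srrm3, a splicing factor, was at 6.52 ± 1.69 and 2.92 ± 1.04 FPKM (SD, n = 3), a log2 change of -1.16 with an adjusted p of 0.0584 (limma). Nr2f1, a nuclear receptor gene, was at 24.8 ± 0.892 and 28.04 ± 0.673 FPKM (SD, n = 3), with an adjusted p of 0.149 (limma).

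The factors were next set beside the hair cell genes in the same samples. Of the 28 hair cell structure and function genes tested, 7 were lower and 1 was higher in old mice, and their median log2 change was -0.56. Chrna9, the nicotinic receptor subunit of outer hair cells, fell by 1.498, Cdh23, a tip link cadherin, by 1.23, and Clrn1, a Usher syndrome gene, by 1.21 on the log2 scale. Lhfpl5, a subunit of the transduction channel complex, fell by 1.13, Slc26a5, the gene of the outer hair cell motor prestin, by 1.10, and Cib2, a calcium-binding protein of that complex, by 0.55 on the log2 scale (adjusted p from 0.0150 to 0.0297, limma). Ush1c, a scaffold gene of the hair bundle and the only gene of the list that was higher, is named after its value was seen, with a log2 change of 0.60 (adjusted p = 0.0450, limma). Without young replicate 1, young replicate 2, old replicate 1, old replicate 2 or old replicate 3 the list had 3, 2, 2, 0 and 2 genes past the threshold, and without young replicate 3 it had 6.

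**Figure D3:**
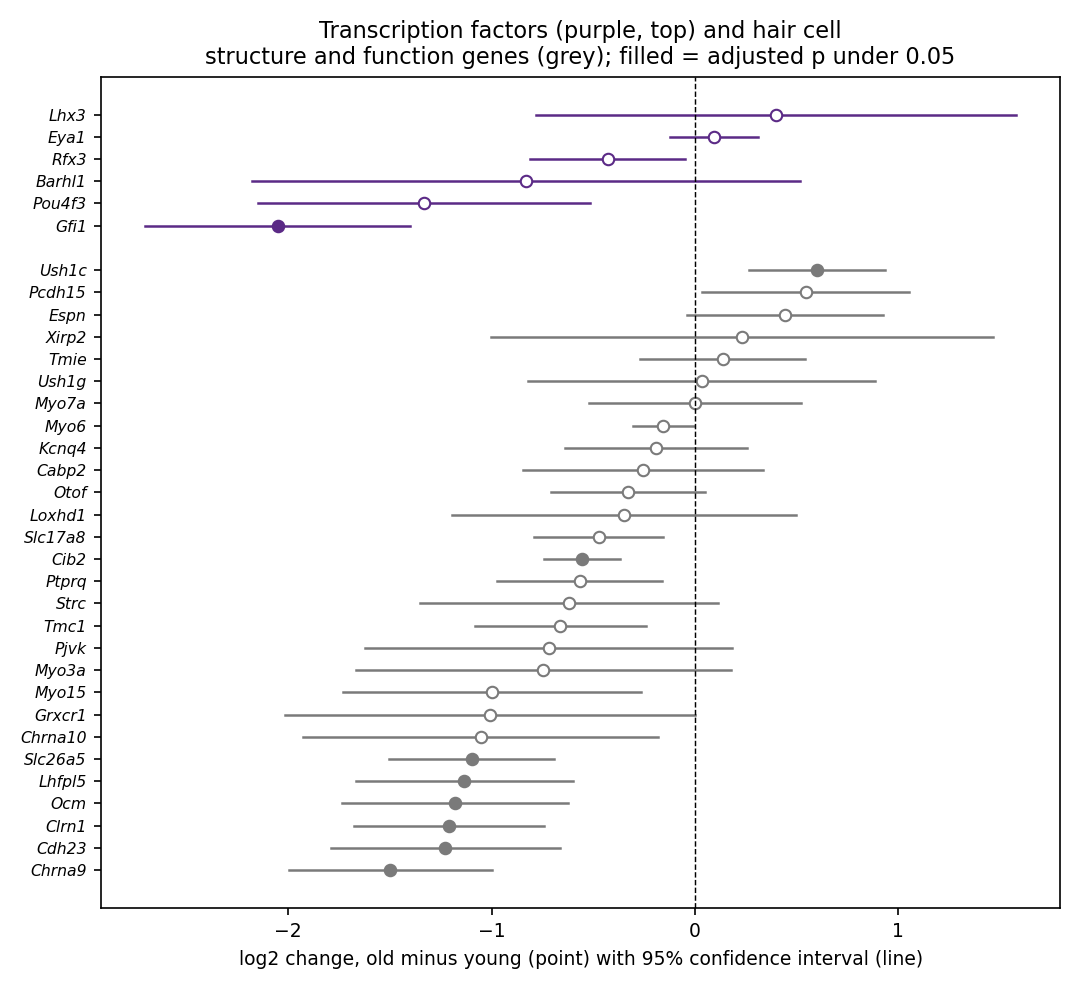
Log2 change, old minus young, of the 6 tested factors (purple) and the 28 hair cell structure and function genes (grey), each with its 95% confidence interval; filled points passed the adjusted p of 0.05 (limma). Gfi1, at -2.05, lies left of all hair cell genes shown, Pou4f3 at -1.33 lies within their range and Eya1 at 0.10 and Lhx3 at 0.40 lie to the right of 0.

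To see whether a factor differed more than the hair cell genes as a whole, its log2 level was taken relative to the mean log2 level of these 28 genes in the same sample. That mean was 2.08 in young and 1.58 in old samples, a difference of -0.50. It lay at 1.89 to 2.21 in the young and at 1.56 to 1.60 in the old samples. A gene with steady FPKM therefore comes out higher in old samples on this scale. The 28 genes also differed among themselves, with 21 log2 changes below 0 and 7 above 0. The share of all genes without overlap on this scale was not computed. Relative to that mean, Gfi1 was at -1.19, -1.04 and -1.20 in young and at -2.59, -2.47 and -3.03 in old samples. All old samples were lower, by 1.55 on average, and the exact permutation p was 0.1, the smallest possible. Eya1 was higher relative to the hair cell genes in all old samples, with an average difference of 0.60 (exact permutation p = 0.1). With the median of the list in place of the mean, Eya1 differed by 0.42 (exact permutation p = 0.2). Pou4f3 differed by -0.83 (exact permutation p = 0.2), with old replicate 3 at -0.22 above young replicate 1 at -0.28, so that the groups overlapped. With the median of the list Pou4f3 differed by -1.01 (exact permutation p = 0.1).

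The remaining factors overlapped as well on this relative scale. Lhx3 differed by 0.90 (exact permutation p = 0.2), Barhl1 by -0.33 (exact permutation p = 0.6) and Rfx3 by 0.07 (exact permutation p = 0.7). The sign for Rfx3 was the opposite without young replicate 1, at -0.03, and that for Barhl1 without young replicate 3, at 0.08. Rfx3, whose groups did not overlap in FPKM, thus overlapped on the relative scale.

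**Figure D4:**
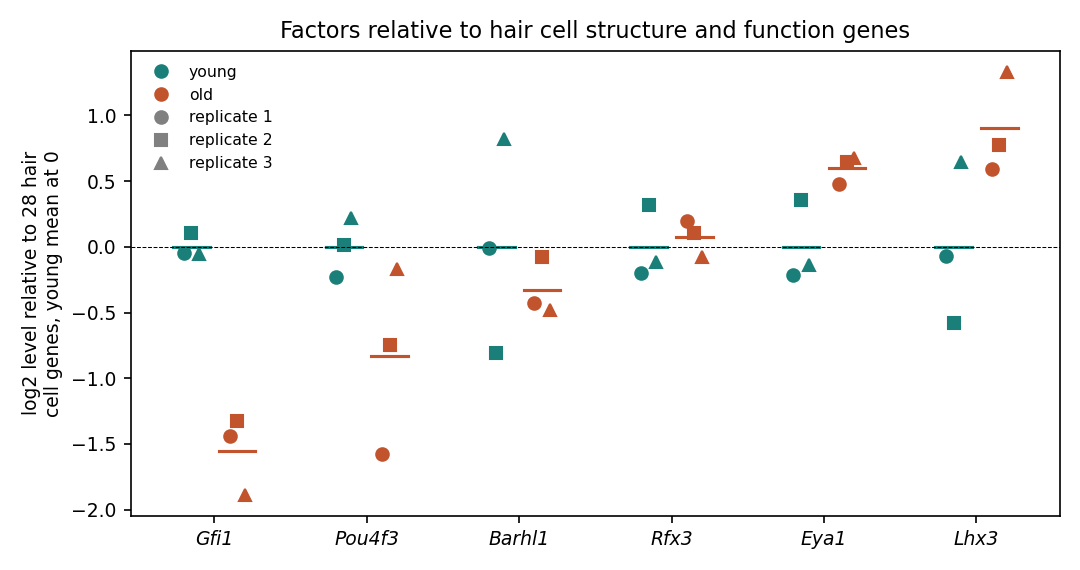
Log2 level of each factor relative to the mean of 28 hair cell genes in the same sample, drawn with the young mean at 0; points are the 3 young and 3 old samples and bars their means. Gfi1 sits 1.55 lower on average in old samples and Eya1 0.60 higher, without overlap, while the other 4 factors overlap between ages. The mean of the hair cell genes was itself lower in all old samples than in all young samples.

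Genes with the most similar profile over the 6 samples were looked up for each factor, by the root mean square difference of centred log2 levels among 14985 genes with a mean of at least 1 FPKM. For Pou4f3 these were Kcnj2, a potassium channel gene, at 0.113, Hdc, the histidine decarboxylase gene, at 0.203, and Lhfpl5 at 0.209. For Gfi1 they were Sult5a1 at 0.195, Col1a2, a type I collagen gene, at 0.254, and Smim17 at 0.261. Pou4f3 and Gfi1 differed from each other by 0.661 on the same measure, so the most similar genes of each were not the other factor.

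The other factors had nearest genes of their own. Barhl1 was nearest to LNC_000149, a transcript that the authors assembled, at 0.258, Elmod1 at 0.260 and Creb5 at 0.306. Lhx3 was nearest to Ly6g6d at 0.152, 5830454E08Rik at 0.154 and Crabp2 at 0.172. For Eya1 the nearest were Itsn2 at 0.0274, Tmem199 at 0.0308 and Nemf at 0.0342, and for Rfx3 they were Kdm7a at 0.0443, Ppm1h at 0.0464 and Arfgef1 at 0.0492. The measure is a description over 6 samples, and with many candidates some genes are close to any profile.

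Motifs of the factors were searched in the 250 bases before RefSeq starts (GRCm38.p6) on both strands. The windows were 8, for Atoh1, Gfi1, Barhl1, Lhx3 and Rfx3. The letters were CAGCTG and CAGATG for basic helix-loop-helix proteins, TAATTAA for class 4 POU factors, AAATCA for GFI1, TAATTA for LIM and BARH homeodomains, which TAATTAA contains, and GTTGCC for RFX factors. CAGCTG was found before 2 starts of Barhl1, 99 and 15 bases ahead of them, and in 13.0% of 32851 windows of all genes. AAATCA was found 30 bases before the 28912495 start of Barhl1 and in 12.4% of all windows, and CAGATG lay 215 bases before the 26206575 start of Lhx3, in an annotated exon, and in 14.4% of all windows. The POU motif (TAATTAA, in 2.78% of all windows), the homeodomain motif (TAATTA, in 4.84%) and the RFX motif (GTTGCC, in 10.4%) had no match in the windows of the factors. A match is a description of the letters and not of binding.

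Cell types other than hair cells also differed between the groups. Of 11 spiral ganglion neuron genes, 7 were lower and none was higher, with summed levels of 567 to 1119 FPKM in young and 392 to 427 FPKM in old samples. Of 13 macrophage genes 9 were higher and none was lower, at 81.5 to 141.6 and 318.9 to 410.7 FPKM. Of 9 lymphocyte genes 8 were tested and 2 were higher, at 0.909 to 3.96 and 5.49 to 5.77 FPKM, with Cd3d at 0 in all young samples. Of 14 supporting cell genes Otog was higher by the threshold, with sums of 3339 to 3887 and 3845 to 4133 FPKM. The log2 change was above 0 for 6 of the 14 and below 0 for 8, with a median of -0.13. Most of the supporting cell sum was S100a1, at 2334 FPKM in young and 2670 FPKM in old samples on average. Of 12 tested skeletal muscle genes Myl1 was lower by the threshold, with sums of 5.53 to 8.23 and 4.76 to 29.9 FPKM. The log2 change was above 0 for 10 of the 12 and below 0 for 2, with a median of 1.02. Of 7 tested hindbrain genes Cbln1 was higher by the threshold, with sums of 85.3 to 90.3 and 75.4 to 82.0 FPKM. The log2 change was below 0 for 5 of the 7 and above 0 for 2, with a median of -0.29. Most of the hindbrain sum was Zic2, at 81.8 FPKM in young and 72.2 FPKM in old samples on average. Some hindbrain genes, named after their values were seen, were highest in young replicate 1: Gabra6 was at 0.479 FPKM there and at 0 in the other samples, Mog was at 1.54 against 0 to 0.403 FPKM, and Gfap at 6.36 against 0.756 to 3.90 FPKM. The part of these cell types in the levels of the 7 factors was not tested. Over all lists, 35 of 193 genes other than the factors passed the threshold, and 15, 12, 35, 10, 0 and 7 did without young replicates 1, 2 and 3 and old replicates 1, 2 and 3 in turn.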

How the data were processed

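RNA of 6 cochlear samples (3 young, 3 old) was sequenced from directional libraries on an Illumina instrument. The deposited values are FPKM per transcript and sample, which the authors computed with Cuffdiff (v2.1.1) after assembly with Cufflinks (v2.1.1) and alignment to GRCm38. The submitters' processing notes also name TopHat2 2.0.9 and CASAVA 1.8. The read filter, annotation release and scaling between libraries are not given in the sources used here. Samples were grouped by the age in their labels.

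Of 56671 transcripts, 55275 matched GENCODE M21, 404 Ensembl transcripts did not and were kept as genes of their own, and 992 carried the authors' prefix LNC_. FPKM were summed per gene and not scaled further. Differences were tested with limma 3.58.1 in R 4.3.3 (lmFit, eBayes with trend, two-sided) on log2(FPKM + 0.1) with age as the only term, for 19649 genes or 38764 transcripts with a mean of at least 0.1 FPKM. This pseudocount understates the change of low genes. Adjustment was by Benjamini-Hochberg over all tested genes or transcripts, with a threshold of 0.05. Shares and relative levels were compared by exact two-sided permutation tests over samples. Fragment numbers were estimated from steps between low values, of which 92.8 to 94.4% lay within 0.1 of a whole number, and carry counting error only. The fits were first tested on simulated data. Tables and plots were made with pandas 2.3.3, numpy 2.4.6 and matplotlib 3.10.9 in Python 3.11.15, and promoter windows came from RefSeq. None was listed there for Pou4f3 and Eya1.

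The 7 factors, the gene lists and the tests were chosen with earlier results of these data known. Named are the 7 factors and their transcripts, the 3 nearest genes of each, Actb and Gapdh. From each list the rule for names took the genes past the threshold (up to 6) or the 3 with the smallest p. For some lists, such as those of neutrophils and macrophages, not all of these are named. Other genes are named where it is said that they were named after their values were seen, and untested genes where a list is accounted for. Alternatives were the pseudocount, the filter, the scaling, the variance trend, sample weights, a replicate block, each sample left out, the choice of transcripts, an unadjusted p and the median of the hair cell list. Leaving out each sample for the transcript shares was added after seeing the data. The result of 1 gene list is not reported here.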

Additional observations from a re-analysis of the deposited data

How the results depend on the processing

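The direction of Gfi1, Pou4f3, Barhl1, Lhx3 and Rfx3 was the same in all settings in which they were fitted. Barhl1 and Lhx3 were not fitted with a minimum mean of 1 FPKM. The filter, the variance trend, the replicate block, protein coding transcripts only and the unadjusted p left the log2 changes of the factors as they were. The direction could therefore not differ in those settings. The level of Gfi1 kept its call except with the most abundant transcript (log2 change -1.73, adjusted p = 0.241, limma) and without old replicate 2 (-2.15, adjusted p = 0.0561). Its adjusted p ranged from 0.00599 to 0.241, and its log2 change from -2.15 to -1.89 with each sample left out. With pseudocounts of 0.01 and 1 it was -2.30 and -1.04. The number of factors past the threshold was 2 with a minimum mean of 1 FPKM, with sample weights or with protein coding transcripts only, where Pou4f3 passed (log2 changes of -1.33, -1.26 and -1.33, adjusted p of 0.0462, 0.0434 and 0.0369, limma). Over the whole table these settings called 1141, 1384 and 1315 genes higher and 883, 990 and 968 lower, against 1063 and 724 in the main fit. The number of factors was 0 with the most abundant transcript and 0 to 1 with each sample left out. By the unadjusted p of limma the number was 3, with Pou4f3 (-1.33, 0.00595) and Rfx3 (-0.43, 0.0327) added, where 27.5% of all tested genes passed. The adjusted p of Pou4f3 ranged from 0.0369 to 0.144. Eya1 had a log2 change of -0.29 with the most abundant transcript. Transcripts of the 7 factors passed in none of the 15 settings. The cause of these changes was not tested.

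Relative to hair cell genes, Rfx3 was at -0.10 with the median over the list and at -0.029 to 0.23 with each sample left out, and Barhl1 at -0.73 to 0.080. With the median over the list Eya1 was at 0.42 (exact permutation p = 0.2) and Pou4f3 at -1.01 (exact permutation p = 0.1). The change in the share of the most abundant transcript, in percentage points, was -14.4 to 36.7 for Gfi1 and -1.13 to 1.56 for Rfx3 with each sample left out. The lists of other genes had 0 to 35 genes past the threshold with each sample left out, 0 without old replicate 2. Over the whole table, 1063 genes were higher and 724 lower, and 616 and 292 without a filter, 271 and 121 without the variance trend, and 44 to 935 and 15 to 821 with each sample left out.

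Samples of the same number did not deviate together (correlations of 0.022, -0.042 and 0.010), so the numbers were not used as pairs. These correlations cannot exclude that samples of the same number were handled together. With the replicate number as a block the log2 change of Gfi1 was -2.05 (adjusted p = 0.0426), that of Pou4f3 -1.33 (adjusted p = 0.0571), 1 factor passed, and 410 genes were higher and 265 lower. No young sample correlated best with the old sample of its own number, and of the old samples only replicate 1 did with its young counterpart.

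Barhl1 and Lhx3 rest on about 3 to 21 fragments a library, and Atoh1 was at the limit of detection.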
